A study of Mus musculus with 4 samples.

Results

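The genes Kit, Cd34, Ptprc, Cd3e, Cd4 and Cd8a encode antigens by which blood cells of the bone marrow are sorted, and their transcripts were followed over 4 mouse cell populations. Every probe set annotated to exactly 1 gene symbol that was one of these genes was taken, which gave 13 probe sets of 34945 with a single symbol and 6 genes of 18193. A probe set is the group of short array probes that reports 1 transcript target. Cd8a had 5 probe sets, Kit, Ptprc and Cd4 had 2 each, and Cd34 and Cd3e had 1 each. Probe sets were taken by gene name only and by no measured value, but the genes were chosen with earlier results of these data known. The populations were granulocytes, progenitors of the blood (HPC) and stem cells of the blood with long-term (LT-HSC) or short-term (ST-HSC) repopulation, each measured on 1 single-colour Affymetrix array. Granulocytes were bone marrow cells sorted for high granularity and strong Gr-1, with a purity of 99.4% by morphology, and no gate on c-Kit, CD34 or CD45 is given for them. The other 3 populations shared an enrichment with CD117 (c-Kit) beads and a lineage cocktail against CD3, CD4 and CD8 of T cells, B220 of B cells, CD11b and Gr-1 of myeloid cells and Ter119 of red cells. LT-HSC were the CD34- fraction of the LKS gate (lineage negative, c-Kit positive, Sca-1 positive), ST-HSC its CD34+ fraction and HPC the LKS- cells, for which no CD34 gate is given. Cells had been thawed, picked by morphology and packed, 50 or 100 together, into empty zonae pellucidae (egg coats), and RNA came from 50 to 200 cells per population after 2 rounds of linear amplification. The labels give no strain, age, sex or genotype, and the number of animals behind each array is not stated. The study concerned these populations as donors for cloning by nuclear transfer, and the arrays addressed whether each carried the expression profile of its cell type.

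As background, Kit encodes c-Kit (CD117), the receptor tyrosine kinase for stem cell factor, which blood stem and progenitor cells need for survival and which most lineages lose as they mature, mast cells being an exception. Cd34 encodes a sialomucin of the cell surface that is found on progenitors and endothelium, and in adult mice the most primitive stem cells carry little of it. Ptprc encodes CD45, a receptor tyrosine phosphatase present on nearly all nucleated blood cells, which acts on kinases of the Src family and whose alternatively spliced B220 form marks B cells. Cd3e encodes an invariant chain of the T cell receptor complex, and Cd4 and Cd8a encode the coreceptors of helper and cytotoxic T cells, which some dendritic cells also carry. Sorting reads protein at the surface, while the arrays read messenger RNA.

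The stretches just before the transcription starts of Kit, Cd34 and Ptprc are shown because these 3 genes carried the signal and differed in opposite directions between granulocytes and the other populations. The sequences are RefSeq's for GRCm38.p6, whose promoter table held 5 of the 6 genes. Each line gives the 250 bases before the first listed start, 5′ to 3′ on the gene's strand. Capitals mark matches on either strand to 5 searched motifs, each known for a class of factors. GATAAG, the core bound by GATA factors, stood in 6.55% of 32851 promoter windows of the same length. AGGAAG, bound by ETS factors such as PU.1, stood in 29.5% of them. TGTGGT, bound by RUNX factors, stood in 14.0% and GGGCGG, bound by Sp1, in 32.7%. TATAAA, the TATA box, stood in 12.4%. The matches shown did not overlap each other. The windows are chr5:75574737-75574986 on the plus strand for Kit, chr1:194938571-194938820 on the plus strand for Cd34 and chr1:138175306-138175555 on the minus strand for Ptprc.
Kit: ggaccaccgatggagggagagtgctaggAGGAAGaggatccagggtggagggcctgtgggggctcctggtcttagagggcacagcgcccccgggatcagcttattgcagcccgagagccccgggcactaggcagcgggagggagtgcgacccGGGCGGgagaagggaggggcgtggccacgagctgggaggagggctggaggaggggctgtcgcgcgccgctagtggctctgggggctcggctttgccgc
Cd34: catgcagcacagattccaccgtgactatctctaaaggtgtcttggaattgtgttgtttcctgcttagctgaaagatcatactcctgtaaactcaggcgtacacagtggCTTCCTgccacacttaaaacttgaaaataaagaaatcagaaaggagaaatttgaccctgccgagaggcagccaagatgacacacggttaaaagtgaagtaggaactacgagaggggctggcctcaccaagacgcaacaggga
Ptprc: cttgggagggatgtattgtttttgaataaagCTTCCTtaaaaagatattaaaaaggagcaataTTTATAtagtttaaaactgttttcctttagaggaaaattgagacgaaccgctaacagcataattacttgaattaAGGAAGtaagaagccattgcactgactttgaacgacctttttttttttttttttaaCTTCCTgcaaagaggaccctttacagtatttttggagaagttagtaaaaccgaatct
The Kit window held 70.8% G and C, that of Cd34 46.4% and that of Ptprc 31.6%, against a median of 52.4% over all windows. The ETS motif matched at 1 position in Kit, 1 in Cd34 and 3 in Ptprc. The Sp1 motif matched at 1 position in Kit and the TATA box at 1 in Ptprc, on the other strand. Kit and Ptprc each had a second listed start, whose window is not shown. For Ptprc that window held a GATA match and an ETS match but no TATA box, and for Kit it held the same motifs as the first. A match of letters is a description of the window and not a shown site of binding.

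Signals are the deposited linear intensities. Values under the floor of 120.1, which is the median over the values of the 4 arrays together, were treated as unmeasured, and between 48.7% and 52.5% of probe sets lay above it. Where 1 of the compared values lay under the floor, the fold is therefore a lower bound, written with "at least", and where both did no fold is stated. With 1 array per population no test was possible and no difference has a replicate check. The only yardstick of error was the disagreement between the 2 brightest probe sets of the same gene. Its SD was 1.26 to 1.29 log2 units for granulocytes against each other array (3365 to 3436 genes) and 0.86 to 0.93 between the other arrays (3762 to 3875 genes). Variation from sort to sort or from amplification to amplification is not part of it. The ratio of 3′ to 5′ signal of the actin control was 5.75 in granulocytes and 12.2 to 16.1 on the other arrays. That of the Gapdh control did not set granulocytes apart, at 12.4 in granulocytes, 12.4 in ST-HSC, 14.9 in LT-HSC and 17.8 in HPC.

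Markers of granulocytes and of stem cells were checked, and no marker particular to HPC was on the lists. Against the mean of the other arrays, granulocytes had at least 2-fold more signal for all 10 granulocyte markers, and 7 of 9 stem cell markers were at least 2-fold lower there. All 9 stem cell markers lay above the floor in LT-HSC and in ST-HSC, against 7 in HPC, where Mecom had 68.0 and Tek 63.6. The LT-HSC array stood apart from HPC and ST-HSC in several granulocyte genes. LT-HSC and HPC both carried some B-lineage genes, although a lineage cocktail had been used on all 3. Summed over the 10 granulocyte markers the signal was 3043 in ST-HSC, 23298 in LT-HSC, 1593 in HPC and 440422 in granulocytes, with 7 markers above the floor in LT-HSC and 3 each in HPC and ST-HSC. S100a8 in LT-HSC had 11.9% of its granulocyte signal and Ngp 10.1%, whereas Mmp8 (77.4), Mmp9 (65.8) and Cxcr2 (34.3) were under the floor there. Csf3r went the other way, with 2404 in ST-HSC, 551 in LT-HSC and 1017 in HPC. Summed over 9 B-lineage markers it was 942 in ST-HSC, 15356 in LT-HSC, 7336 in HPC and 2258 in granulocytes. Vpreb1, the surrogate light chain gene of pre-B cells, had 4815 in LT-HSC, 2532 in HPC and 15.0 in ST-HSC. Igll1 had 4234, 1862 and 29.1 in that order, and Cd79b 3562, 1942 and 428. Ms4a1 was under the floor in all 3, and Pax5 in HPC and ST-HSC. Both were highest in granulocytes, at 220 and 255, as was Cd22 at 245. Summed over 7 monocyte and macrophage markers the signal was 2209 in ST-HSC, 1666 in LT-HSC, 20547 in HPC and 43171 in granulocytes. Of these 7, 6 were at least 2-fold higher in HPC than in the mean of the stem cell arrays. The part of granulocyte, B-lineage and monocyte transcripts in the values of the antigen genes on the LT-HSC and HPC arrays was not tested.

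**Figure D1:**
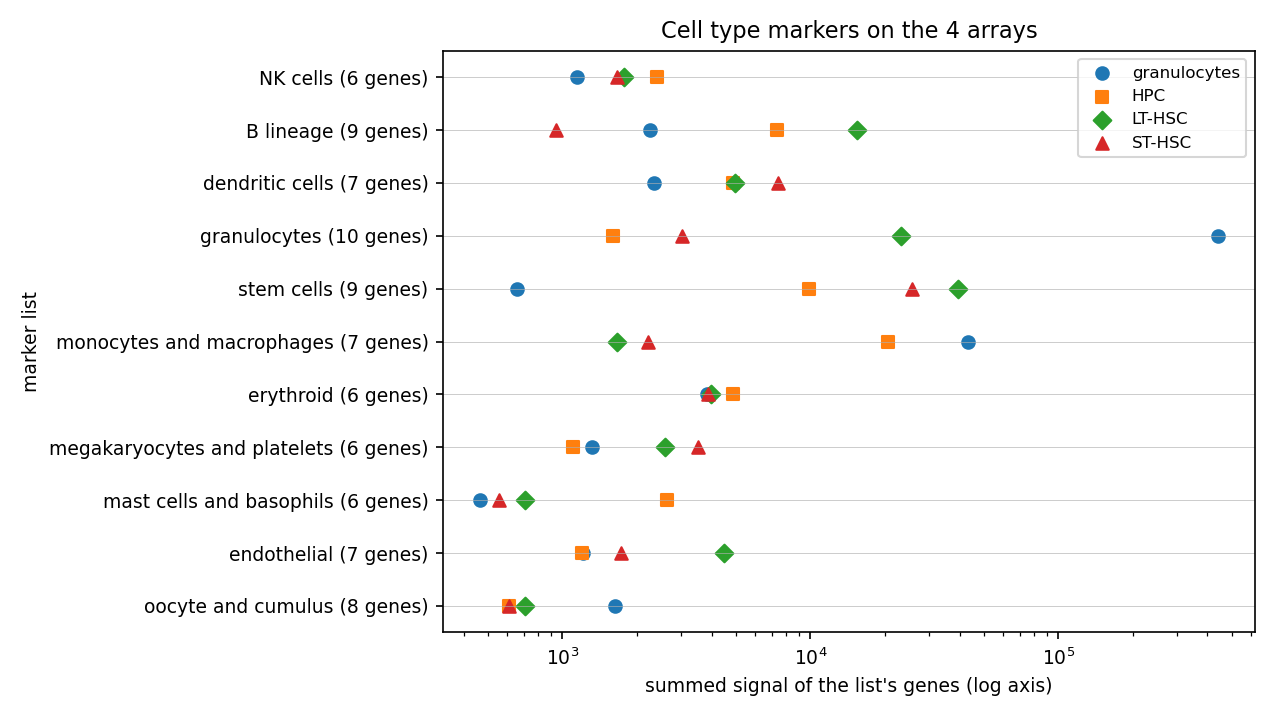
Summed signal of the measured genes of 11 marker lists (log axis), with 1 symbol per array. Granulocyte markers reach 440422 in granulocytes and 23298 in LT-HSC against 1593 and 3043 in HPC and ST-HSC, and B-lineage markers are highest in LT-HSC at 15356.

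Kit and Cd34 were lower in granulocytes, Ptprc was higher there and the T cell genes were low or conflicting. Cd4 was nowhere above the floor, Cd3e reached at most 1.29 times the floor, and Cd8a was above it by some probe sets. Above the floor were 3 of the 13 on all 4 arrays, 7 on 1 to 3 arrays and 3 on none. In granulocytes against HPC, 3 of 13 probe sets were at least 2-fold higher, where 12.6% of all probe sets were, and 3 were at least 2-fold lower, where 15.2% were. Against LT-HSC, 3 were higher (12.5% of all) and 2 lower (16.5% of all), and against ST-HSC 3 were higher (13.2% of all) and 2 lower (15.9% of all). HPC against LT-HSC gave 1 higher (4.45% of all) and 1 lower (7.09% of all), and HPC against ST-HSC gave 1 higher (5.69% of all) and 1 lower (6.29% of all). LT-HSC against ST-HSC gave 1 higher (7.08% of all) and 1 lower (4.92% of all). With 13 probe sets these counts are too small to set the genes apart from the rest of the array, and single genes carried them. In bulk samples fewer cells that carry a transcript and less of it per cell cannot be told apart.

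**Figure D2:**
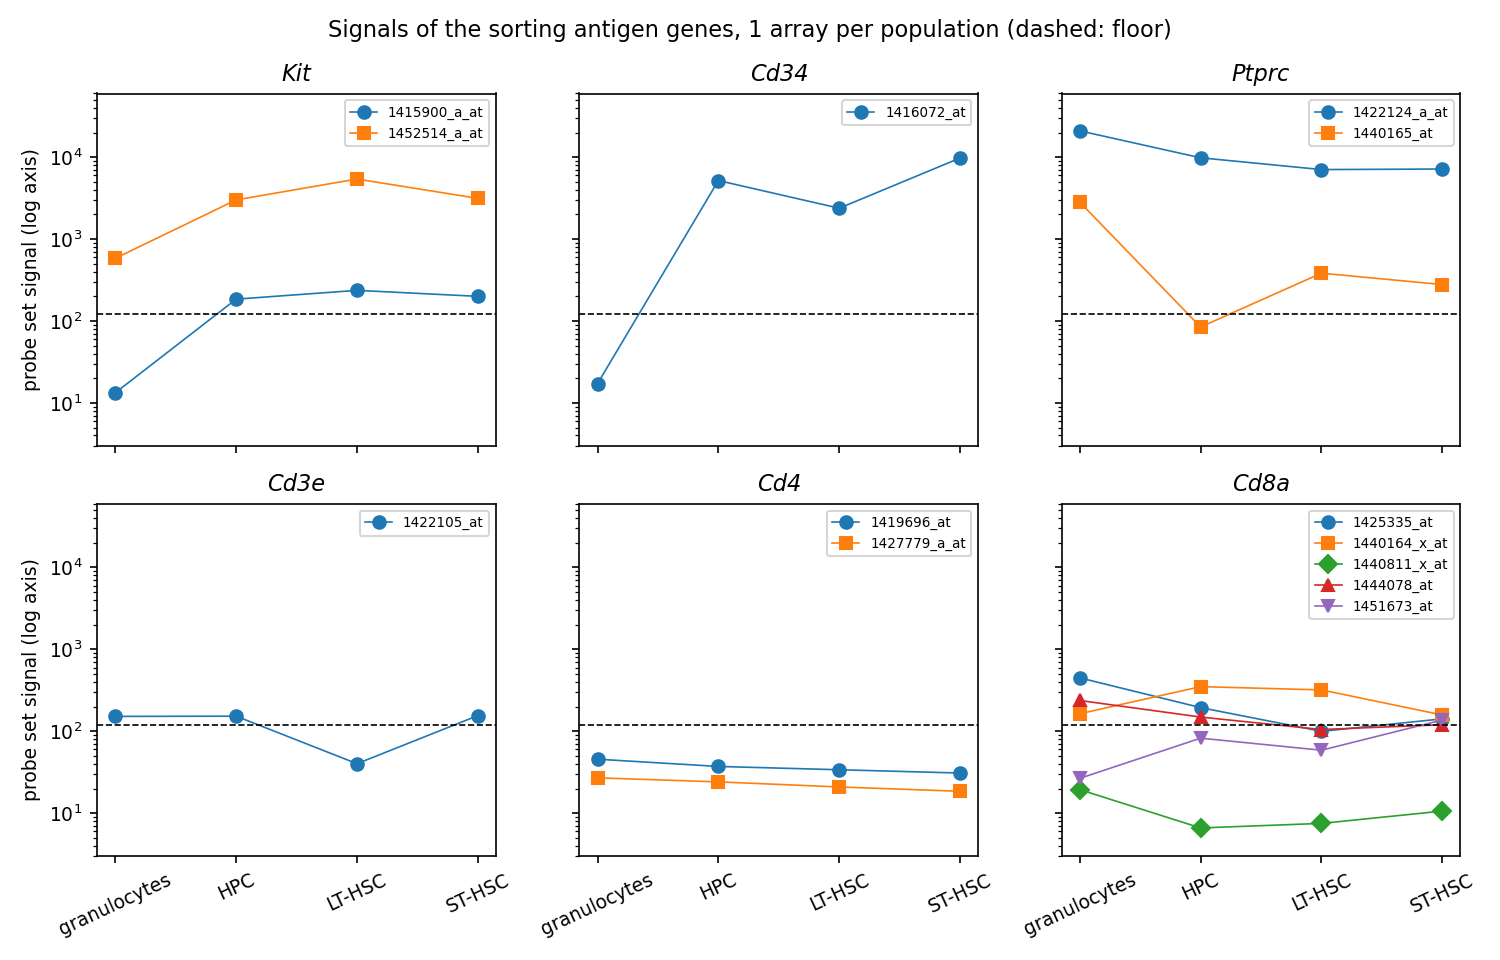
Signal of each of the 13 probe sets on the 4 arrays (log axis), 1 panel per gene. Lines only join the points of a probe set, and the dashed line is the floor of 120.1. Cd34 spans 17.2 to 9778, both Kit probe sets are lowest in granulocytes, and both Ptprc probe sets are highest there.

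Kit, the gene of the receptor used for enrichment, was lowest in granulocytes by both of its probe sets. The brighter probe set, 1452514_a_at, had a signal of 3144 in ST-HSC, 5416 in LT-HSC, 3011 in HPC and 583 in granulocytes. All 3 bead-enriched populations thus lay above granulocytes, by 5.16-fold for HPC, 9.29-fold for LT-HSC and 5.39-fold for ST-HSC. The log2 differences of −2.37, −3.22 and −2.43 each exceeded the SD between probe sets. The dimmer probe set, 1415900_a_at, had 200.1 in ST-HSC, 237 in LT-HSC, 185 in HPC and 13.3 in granulocytes. Its granulocyte value was under the floor, so the differences were at least 1.54-, 1.97- and 1.67-fold.

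Among the c-Kit enriched populations the order of Kit was LT-HSC, ST-HSC and HPC in both probe sets. LT-HSC exceeded ST-HSC by 1.72-fold with the brighter probe set and by 1.18-fold with the dimmer one. LT-HSC exceeded HPC by 1.80-fold and 1.28-fold. All 4 of these differences were smaller than the SD between probe sets, and ST-HSC and HPC differed by 1.04-fold and 1.08-fold. The granulocyte difference from the mean of the other arrays was −2.67 on the log2 scale with the brighter probe set. With the dimmer one it has only a bound, −0.78 or farther from 0.

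Mast cells also carry c-Kit, and 3 of their 6 measured markers were highest in HPC. Cpa3, the mast cell carboxypeptidase, had 151 in ST-HSC, 486 in LT-HSC, 1186 in HPC and 128 in granulocytes. Mcpt8, a protease of basophils, had 1096 in HPC and at most 126 elsewhere. Ms4a2, a chain of the IgE receptor, had 126.5 in HPC, just above the floor, and at most 110.5 elsewhere, under it. The mast cell tryptase gene Tpsb2 was highest in granulocytes, at 147, while the tryptase gene Tpsab1 and Fcer1a were under the floor throughout. The 6 mast cell and basophil markers together summed to 555 in ST-HSC, 706 in LT-HSC, 2645 in HPC and 465 in granulocytes, and 2, 1, 4 and 2 of them lay above the floor. The part of such cells in the Kit signal was not tested.

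Cd34 had the widest span of the 6 genes and followed the CD34 gate among the stem cells. Its only probe set, 1416072_at, had 9778 in ST-HSC, 2384 in LT-HSC, 5190.0 in HPC and 17.2 in granulocytes. Granulocytes lay under the floor, and all other populations lay far above it, also the one sorted as CD34-. Against granulocytes the signal was at least 81.4-fold higher in ST-HSC, 43.2-fold in HPC and 19.8-fold in LT-HSC. Of all probe sets, 0.0258% were as far or farther below ST-HSC in granulocytes, and 0.0887% were as far or farther below HPC.

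LT-HSC had 4.10-fold less Cd34 signal than ST-HSC, a log2 difference of −2.04. Only 0.532% of all probe sets were as far or farther below ST-HSC. This exceeded the SD between probe sets of 0.88, and the value ran from −2.15 to −1.84 under the alternative scalings. The alternative floors and choices of probe set could not move it, since both values lay far above the floor and the gene had 1 probe set. HPC, with no stated CD34 gate, lay between the stem cell populations, 2.18-fold above LT-HSC and 1.88-fold below ST-HSC. The first of these differences exceeded the SD between probe sets and the second, at −0.91 against 0.93, did not. A single probe set gives no check of the transcript by a second measurement on the same array.

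Endothelial cells also carry CD34, and their markers were mixed on these arrays, with 5 of 7 above the floor in LT-HSC, 4 in granulocytes and 3 each in HPC and ST-HSC. Cdh5, the cadherin of endothelium, had 209.9 in granulocytes and 59.5 to 74.7 on the other arrays, and Pecam1 had 181.5 and 24.3 to 108. Kdr had 94.1 to 325 over the 4 arrays and Eng 427 to 801. Tek and Tie1 were highest in LT-HSC, at 319 and 229. Esam, which stem cells also express, had 855 in ST-HSC, 2637 in LT-HSC, 387 in HPC and 87.9 in granulocytes. The sum over the 7 endothelial markers was 1726, 4494, 1199 and 1206 in that order of arrays. The part of such cells in the Cd34 signal was not tested.

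Ptprc was detected in all 4 populations and was highest in granulocytes by both probe sets. The brighter probe set, 1422124_a_at, had 7178 in ST-HSC, 7066 in LT-HSC, 9845 in HPC and 21001 in granulocytes. Granulocytes exceeded HPC by 2.13-fold, LT-HSC by 2.97-fold and ST-HSC by 2.93-fold, and the log2 difference from HPC of 1.09 lay within the SD between probe sets. LT-HSC and ST-HSC differed by 1.02-fold. The dimmer probe set, 1440165_at, had 279 in ST-HSC, 384 in LT-HSC, 84.5 in HPC and 2832 in granulocytes. With it granulocytes exceeded HPC by at least 23.6-fold, LT-HSC by 7.38-fold and ST-HSC by 10.2-fold.

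The 2 Ptprc probe sets disagreed on HPC. With the brighter one HPC lay 1.39-fold above LT-HSC and 1.37-fold above ST-HSC. With the dimmer one HPC was under the floor and lay at least 3.20-fold below LT-HSC and 2.32-fold below ST-HSC. In granulocytes against HPC the probe sets differed by at least 3.47 log2 units, more than the SD of 1.29 over all genes. After scaling to the hybridization controls, which were brightest on the granulocyte array, the log2 difference of the brighter probe set from the mean of the other arrays was 0.87 in place of 1.40, under 2-fold. The positions of these probe sets within the spliced forms of CD45 were not used here, so no form such as B220 can be read from them.

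The genes of the T cell antigens, against which the lineage cocktail was directed, had signals of at most 449 on any array. Cd3e (1422105_at) had 155 in ST-HSC, 40.2 in LT-HSC, 153 in HPC and 152 in granulocytes. ST-HSC, HPC and granulocytes lay within 1.02-fold of each other, LT-HSC was under the floor, and the highest value was 1.29 times the floor. The highest signal among 27 control probe sets for bacterial transcripts, which all read low on these arrays, was 138 in granulocytes and 52.5 to 90.3 elsewhere.

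Cd4 was under the floor in all 4 populations by both probe sets. The probe set 1419696_at had 30.9 in ST-HSC, 33.9 in LT-HSC, 37.2 in HPC and 45.6 in granulocytes. The probe set 1427779_a_at had 18.5, 20.9, 24.1 and 27.0 in the same order. No difference is given for this gene, since values under the floor were treated as unmeasured.

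The 5 probe sets of Cd8a disagreed with each other. The probe set with the highest mean, 1440164_x_at, had 158 in ST-HSC, 320.0 in LT-HSC, 351 in HPC and 164 in granulocytes. Its suffix _x_at marks probes that can bind other transcripts. By it HPC and LT-HSC were 2.22-fold and 2.02-fold above ST-HSC. The probe set 1425335_at was highest in granulocytes, with 449 there, 142 in ST-HSC, 99.8 in LT-HSC and 195 in HPC. The probe set 1444078_at gave the same array as highest, with 238 against 149 (HPC), 105 (LT-HSC) and 120.3 (ST-HSC). The probe set 1451673_at exceeded the floor only in ST-HSC, at 137, and 1440811_x_at had 6.6 to 19.4.

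No direction of Cd8a can therefore be given. With 1440164_x_at granulocytes lay 2.14-fold below HPC, and with 1425335_at they lay 2.31-fold above it. The log2 difference of LT-HSC from ST-HSC was 1.02 with the former and −0.24 with the latter, whose LT-HSC value was under the floor, so that LT-HSC lay at least 1.18-fold lower. Cd8b1, the partner chain of CD8, was under the floor on all 4 arrays, at 14.1 to 93.0. It was named after its values had been seen. Of the other antigens in the gates, Itgam, the gene of CD11b on myeloid cells, had 2570.2 in granulocytes and 7.9 to 34.8 on the lineage-depleted arrays, all under the floor.

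**Figure D3:**
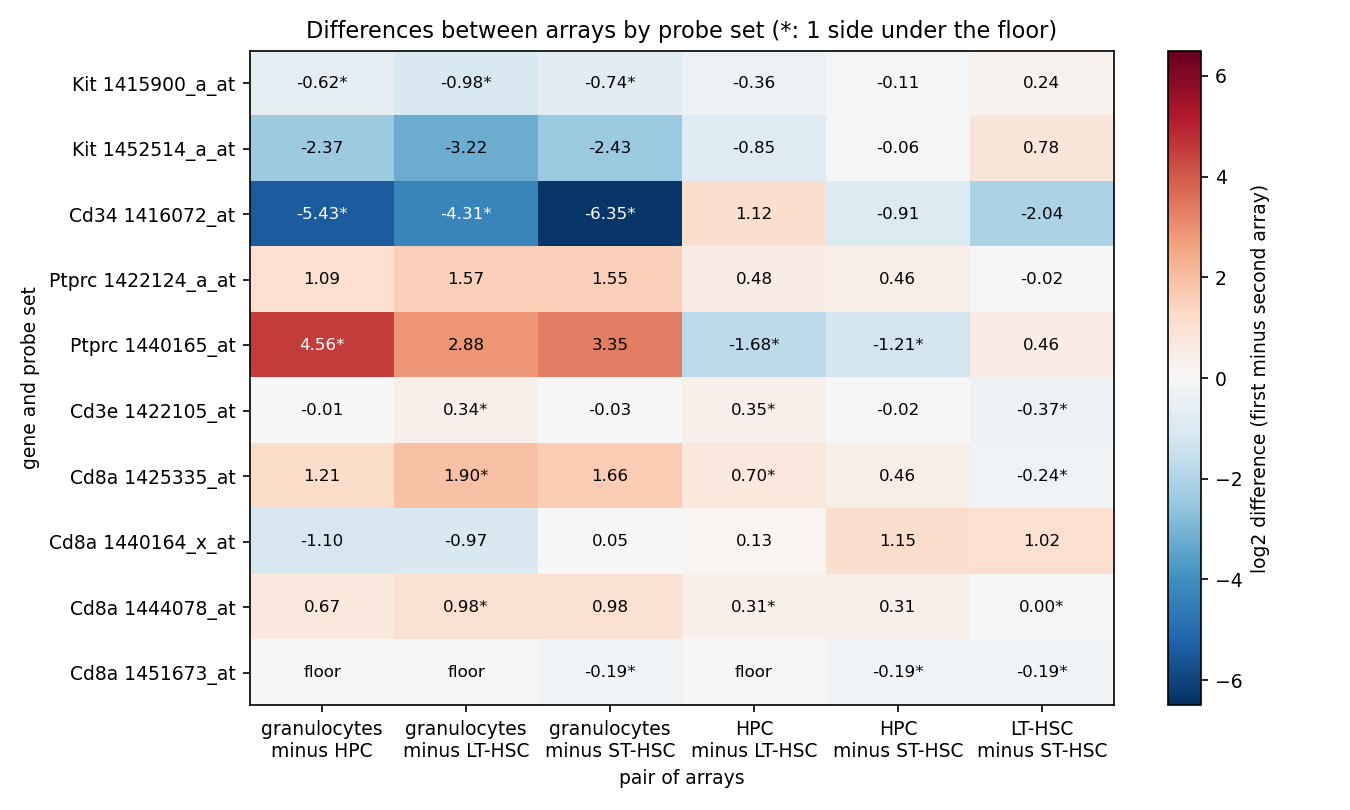
Log2 differences for the 6 pairs of arrays (columns) in the 10 probe sets above the floor on at least 1 array (rows), with red for a higher and blue for a lower first array. An asterisk marks 1 side under the floor. Both Kit rows have the same sign in every column, the Ptprc rows differ in sign for HPC against LT-HSC, HPC against ST-HSC and LT-HSC against ST-HSC, and the Cd8a rows conflict.

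Agreement between probe sets thus differed from gene to gene. The Kit pair had the same sign in all 6 comparisons of arrays. The Ptprc pair had the same sign in the 3 comparisons with granulocytes and opposite signs in the other 3. Of the 60 combinations of a Cd8a pair with a comparison, 14 had the same sign, 13 had opposite signs and 33 had no difference in at least 1 probe set because of the floor. Over all genes whose 2 brightest probe sets lay above the floor on both arrays, the sign was the same for 70.2% to 70.8% in comparisons with granulocytes and for 63.0% to 63.9% in the others. Where the brighter probe set differed at least 2-fold, these shares were 78.1% to 80.8% and 68.5% to 74.5%.

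Around these antigens stand lists of related genes, each gene represented by its brightest probe set, and they were described by their counts against 18193 genes. In granulocytes against the mean of the other arrays, 12.9% of all genes were at least 2-fold higher and 18.6% lower. Of the genes past 2-fold, 59.0% were lower, against 78.4% after scaling to the hybridization controls and 48.1% after scaling to a common 75th percentile. In LT-HSC against ST-HSC, 7.28% of all genes were at least 2-fold higher and 5.41% lower. The median of all genes was 0 in both comparisons, where genes under the floor on all compared arrays count as exactly 0. Without a floor it was 0.15 for granulocytes and −0.05 for LT-HSC against ST-HSC.

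Of 33 measured genes of the ligand and signalling of c-Kit, 5 were at least 2-fold higher in granulocytes, where 12.9% of all genes were. At least 2-fold lower were 11, where 18.6% of all genes were, and the median log2 difference was −0.11. The lowest were Plcg1, a phospholipase C, at 121 against 2505 to 3612 on the other arrays, Cblb, a ubiquitin ligase, at 136 against 1854 to 3536, and Gab1, a docking adaptor, at 140.4 against 1425 to 3504. The highest were Sh2b2, an adaptor, at 734 against 26.5 to 318, Ptpn6, the phosphatase SHP-1, at 7409.6 against 1879 to 3483, and Map2k1, the kinase MEK1, at 5106 against 1209 to 2923. The dimmest probe sets of Plcg1, Gab1 and Sh2b2 lay under the floor on all 4 arrays and gave no difference, and that of Cblb gave −0.35 on the log2 scale against −4.10 with the brightest. Plcg1 had a further probe set, above the floor on at least 1 array, that gave the opposite sign. Gab2, Sos1, Jak2 and Src, also counted as lower, each had at least 1 such probe set. Kitl, which encodes the ligand, had 238 to 354 over the 4 arrays.

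In LT-HSC against ST-HSC, 11 of these 33 genes had at least 2-fold more signal and 0 had 2-fold less, with a median of 0.55. Grb10, an imprinted adaptor gene, led with 3325 in LT-HSC against 271 in ST-HSC and 142.6 and 209.5 in granulocytes and HPC. Stat5a, a transcription factor downstream of cytokine receptors, had 2525 against 835, and the adaptor gene Dok1 had 806 against 283. The count of higher genes ran from 4 to 13 under the alternatives, and the dimmest probe sets of Grb10 and Stat5a lay under the floor on both arrays. Pik3cd and Stat5b, also counted as higher, each had another probe set of opposite sign.

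The relatives of c-Kit among the class III receptor tyrosine kinases went separate ways. Flt3, a receptor of multipotent and lymphoid-primed progenitors, had 6634 in ST-HSC, 3156 in LT-HSC, 3741 in HPC and 299.6 in granulocytes. It was lowest in granulocytes like Kit, but it was lower in LT-HSC than in ST-HSC by 2.10-fold. Csf1r, the M-CSF receptor gene of monocytes and macrophages, had 523 in ST-HSC, 209.8 in LT-HSC, 11928 in HPC and 13089 in granulocytes. Pdgfrb had 1861, 310, 3899 and 55.1 in that order, and Pdgfra exceeded the floor only in HPC, at 160.0. The dimmest probe set of Pdgfrb was under the floor in both LT-HSC and ST-HSC.

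The genes nearest to CD34 in family and function showed smaller spans. Podxl, which encodes the related sialomucin podocalyxin, had 265 in ST-HSC, 247 in LT-HSC, 108 in HPC and 124 in granulocytes. Emcn (endomucin) had 462, 265, 121 and 127 in the same order, and Podxl2 was under the floor throughout, at 7.7 to 10.3. Selplg, which encodes the selectin ligand PSGL-1, was highest in granulocytes at 16993 and had 2309 in ST-HSC, 7176 in LT-HSC and 3685 in HPC. Selp (P-selectin) had 229 in ST-HSC, 42.4 in LT-HSC, 650.2 in HPC and 1202 in granulocytes, and Sele stayed under the floor. Of the adaptor genes, Crk had 2283 in granulocytes and 3822 to 5642 elsewhere, and Crkl had 1030.2 to 2197. In granulocytes 2 of the 8 measured genes were at least 2-fold higher and 1 lower. The lower gene was Crk, for which another probe set, above the floor on at least 1 array, had the opposite sign.

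Kinases and adaptors connected with CD45 divided evenly in granulocytes, with 4 of 13 at least 2-fold higher and 4 lower. Fyn and Src are counted here and among the c-Kit signalling genes. Fgr, a myeloid kinase of the Src family, had 5849 against 153 to 279 on the other arrays and was 31.3-fold higher. Skap2, an adaptor, had 16577 against 2615 to 4944, and Pag1, an anchor of the inhibitory kinase Csk, had 7361 against 1379 to 3723. On the lower side the kinase gene Fyn had 42.9 against 1258 to 1939. Lgals1, whose product galectin 1 binds CD45, had 1732 against 3700 to 15277. Src had 33.4 against 297 to 564, but its other probe set gave the opposite sign with a log2 difference of 1.18.

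In LT-HSC against ST-HSC, Blk, a kinase of the Src family in B cells, had 1151 against 164 and Yes1 278 against 111, while Pag1 had 1379 against 3723. Blk also belongs to the B-lineage markers, whose sum was highest in LT-HSC, and the part of B-lineage transcripts in it was not tested. Among 13 other receptor phosphatases, 3 were at least 2-fold higher in granulocytes and 1 lower. Ptpre had 11899.7 against 4599 to 7508, Ptprm 774 against 157 to 403 and Ptprf 677 against 132 to 897, while Ptprs had 439.5 against 2270 to 3706. Ptprf was thus above the mean but below LT-HSC, which had 897. The dimmest probe set of Ptprs was under the floor on all 4 arrays, and so were those of Yes1, Pag1 and Ptprf in both LT-HSC and ST-HSC. Ptprf and Ptprs each had another probe set, above the floor on at least 1 array, with the opposite sign in granulocytes. For Ptprf this also held in LT-HSC against ST-HSC.

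Factors known to act on the splicing of CD45 gave 2 lower and no 2-fold higher genes of 9 in granulocytes. Sfpq had 2376 against 7308 to 9974 and Srsf1 1156 against 3343 to 4243, although the dimmest probe set of Sfpq had the opposite sign and that of Srsf1 was under the floor throughout. Hnrnpll, a regulator of CD45 exon skipping in lymphocytes, had 2502 in ST-HSC, 1081 in LT-HSC, 3899 in HPC and 3152 in granulocytes. Hnrnpl had 402 to 958, Ptbp1 714 to 1556, Thrap3 1304 to 2405, Srsf2 2269 to 3170, Srsf3 3316 to 5407 and Srsf5 4990 to 11500.3 over the arrays.

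Of 16 measured genes of the T cell receptor complex and T cells, 2 were at least 2-fold higher in granulocytes and 1 lower, with a median of 0. Cd3d, the delta chain of CD3, stood out with 14.6 in ST-HSC, 55.4 in LT-HSC, 206 in HPC and 3890.2 in granulocytes. Against the mean of the others this was at least 27.1-fold more, by a single probe set. The partner chains did not share this profile. Cd3g was under the floor on all arrays, at 25.6 to 102, Cd247, the zeta chain, had 21.8 in granulocytes and 156 to 351 elsewhere, and Cd3e stayed within 1.02-fold between granulocytes, HPC and ST-HSC. Cd3g was named after its values had been seen, as was Thy1, which had 24.8 in granulocytes and 171 to 256 elsewhere. The adaptor gene Lcp2, which myeloid cells also use, had 2477 against 514 to 1046, and Lat had 46.4 against 398 to 1029. Cd2 had 304 in granulocytes and 55.5 to 247 elsewhere.

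Transcription factors known to act at Kit or Cd34 were mostly lower in granulocytes, with 9 of 16 at least 2-fold lower, 1 higher and a median of −1.49. Hoxa9 had 74.0 in granulocytes and 3961 to 9430.0 elsewhere, Tal1 95.7 and 3015 to 6345, and Hlf 46.0 and 1566 to 10387. Spi1, which encodes the myeloid factor PU.1, was 7.20-fold higher in granulocytes at 4175 against 459 to 654. The count of lower factors ran from 6 to 11 under the alternatives, and Hoxa9 came down to a log2 difference of −0.54 with its dimmest probe set. Runx1, also counted as lower, had 3 other probe sets of opposite sign that lay above the floor on at least 1 array. In LT-HSC against ST-HSC, 2 of the 16 were at least 2-fold higher, where 7.28% of all genes were, and 1 was lower, where 5.41% were. The higher ones were Hlf (10387 against 3458) and Tal1 (6345 against 3015), and the lower one was Mitf (476 against 951). Mitf changed sign with its other probe set.

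**Figure D4:**
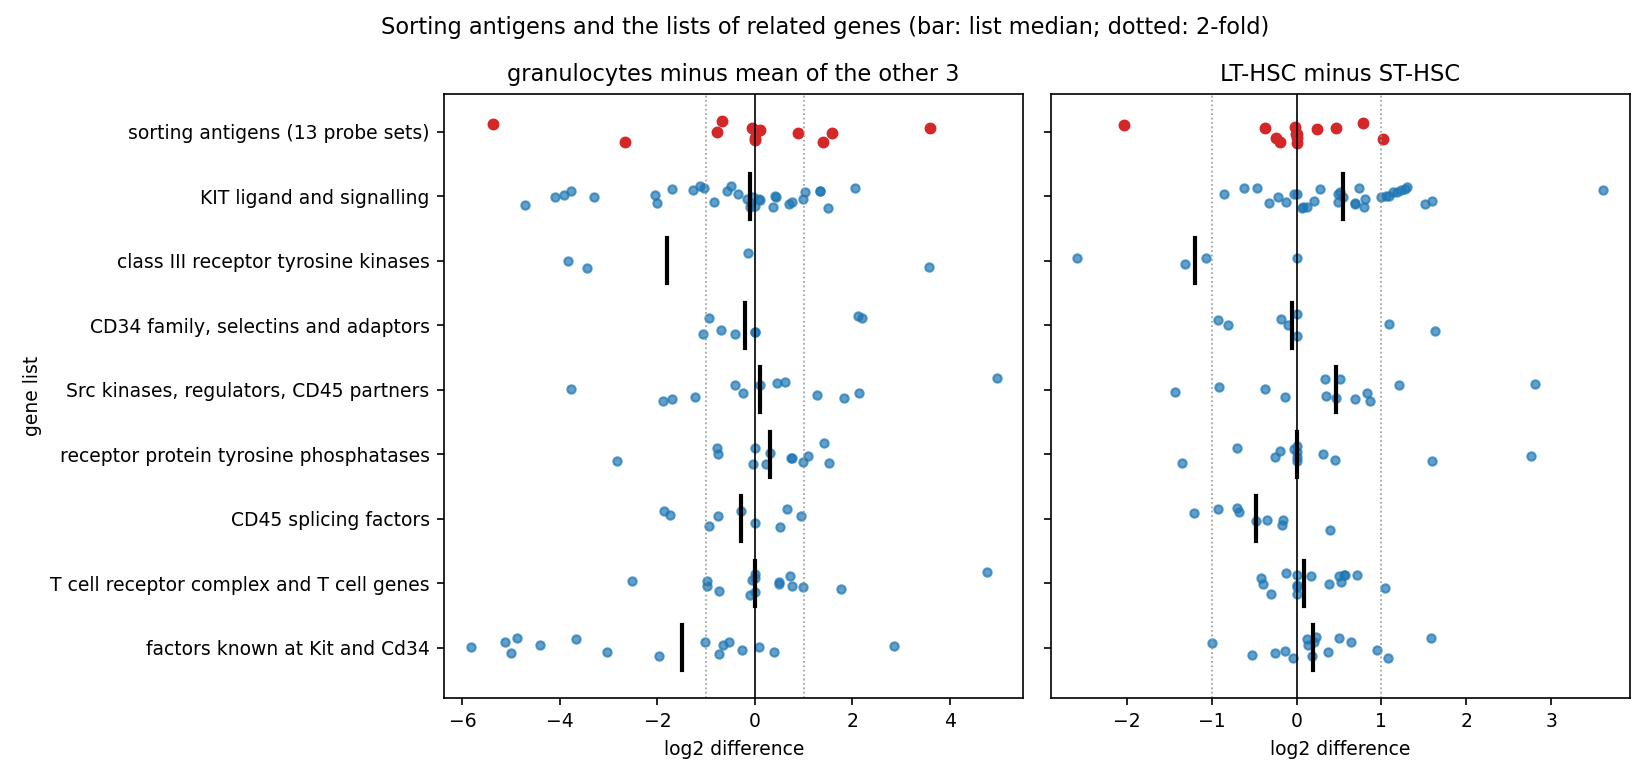
Log2 differences of the 13 probe sets of the sorting antigens (red) and of the genes of 8 related lists (blue, brightest probe set), for granulocytes against the mean of the other 3 arrays (left) and LT-HSC against ST-HSC (right). Black bars are list medians and dotted lines mark 2-fold. The factors known at Kit and Cd34 have a median of −1.49 on the left, and the c-Kit signalling genes one of 0.55 on the right.

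Genes with the most similar profile were sought by the root mean square difference between log2 values centred on their mean over the 4 arrays, so a value near 0 means the same shape. Values under the floor were set to it first, so the distance of a gene with such values depends on the floor. Predicted genes, unnamed clones and genes above the floor on no array were left out of the search and of its counts. For Kit the nearest were Nol12 (0.043), Fnbp1l (0.079), Cenpc1 (0.086), Cdc23 (0.11) and Lemd2 (0.11). The granulocyte values of all but Fnbp1l were under the floor, which sets how near they come. Fnbp1l was measured on every array, with 641, 3043, 6133 and 3679 over granulocytes, HPC, LT-HSC and ST-HSC. As many as 77 genes lay within 0.25 of Kit, so with 4 arrays its profile was a common one. Cd34 had only 1 gene within 0.25 and 12 within 0.5. The nearest were Ide (0.23), with 37.8, 5998, 2699 and 7533, then Prps2 (0.34), Suclg2 (0.35), Pa2g4 (0.44) and Aco1 (0.44), all of them under the floor in granulocytes. For Ptprc, with 642 genes within 0.25, the nearest were Lad1, Kank4, Kcnk13, Unc5c and Oas1a, at 0.016 to 0.046. Lad1 and Kank4 were under the floor in LT-HSC and ST-HSC and Kcnk13 in LT-HSC, so their nearness rests on the floor. Unc5c and Oas1a were measured on every array.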

How the data were processed

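The authors' deposited table holds probe set intensity on a linear scale for 4 arrays, 1 per population. Per the labels' protocols, RNA was amplified in 2 rounds and labelled with biotin. Each array had a 2% trimmed mean of 500.00, so values were used as deposited, without background correction; the software that summarised the probes is not given in the sources used here. Of 45101 probe sets, 64 controls were left out. GEO's platform annotation gave 1 symbol for 34945, several for 932 and none usable here for 9160.

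Values under the pooled median (120.1) were set to it before log2. Where a gene had several probe sets, the brightest by mean log2 value stood for it. No test was possible. The members and lists were chosen with earlier results of these data known. Named were all members, lists of up to 10 genes, in longer lists the 3 highest and 3 lowest log2 differences, of which those at least 2-fold were usually given, and the 5 nearest profiles. Some members of these lists were not analysed here, among them the genes of Sca-1 and Gr-1. Alternatives changed the floor, the scaling and the choice of probe set, and left out an array. The procedure was tested on simulated data. Computations used pandas 2.3.3 and numpy 2.4.6 in Python 3.11.15, and plots matplotlib 3.10.9.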

Additional observations from a re-analysis of the deposited data

How the results depend on the processing

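In granulocytes against the mean of the other arrays, Kit and Cd34 stayed lower and Ptprc higher under all 14 alternatives. Some of these could not move the values. The changed floors left Kit and Ptprc as they were, since their brighter probe sets lay above them, and the choice of probe set could not alter Cd34. The log2 difference of Kit, −2.67, became a bound of −0.78 or farther from 0 with its dimmest or first probe set by name, which was under the floor in granulocytes. That of Cd34, a bound of −5.36, became −8.17 without a floor, and that of Ptprc, 1.40, became at least 3.60 with its dimmest probe set. Without HPC, LT-HSC or ST-HSC, an alternative chosen after seeing the data, it ran from −2.82 to −2.40 for Kit, −5.89 to −4.87 for Cd34 and 1.32 to 1.56 for Ptprc. In LT-HSC against ST-HSC, Cd34 ran from −2.15 to −1.84 over the scalings. Cd8a (1.02) became −0.24 with its first probe set and without probe sets ending in _x_at or _s_at, which also reduced its combinations with opposite signs from 13 to 4. Of 50 values of related genes, 31 came under 2-fold in at least 1 alternative. Under these alternatives the sign changed for Src (1.18), Sfpq (1.31), Mitf (0.70) and Crkl (−0.17), with another probe set. The alternatives did not use every probe set singly. Among the 50 values, a probe set above the floor on at least 1 array also had the opposite sign for Plcg1, Ptprs, Ptprf and Crk in granulocytes. The same held for Ptprf in LT-HSC against ST-HSC. Counts of c-Kit signalling genes ran from 1 to 7 higher and 1 to 14 lower in granulocytes, T cell genes from 2 to 4 and 1 to 5, receptor phosphatases from 0 to 7 and 0 to 2, and splicing factors from 0 to 2 and 2 to 4. Of all genes, 1262 to 4875 were higher and 1699 to 4636 lower, against 2351 and 3385. No paired analysis was possible because each population has 1 array. Precision is limited by the number of arrays, and the cause of the changes was not tested.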
